A study of Homo sapiens with 14 samples.

Results

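The comparison described here sets 1 array, labelled B96 replicate 2, against the 4 arrays whose profiles it most resembles, out of 14 arrays in the series. The cells are WI-38, a diploid fibroblast strain from human lung, and an array gives 28869 log2 values, 1 per row of the table. Per the labels, B96 replicate 2 is RNA of hTERT-immortalized cells of the letter B at passage 96, where hTERT is the catalytic subunit of telomerase. The 4 comparison arrays are labelled primary replicate 2 (not immortalized, passage 19), A39 replicate 1 and A39 replicate 2 (hTERT, letter A, passage 39) and A50 replicate 1 (hTERT, letter A, passage 50). All 14 cultures were kept in the same serum-containing medium with weekly passaging, and the labels state biological duplicates. The labels do not say what the letters A and B stand for, or whether the immortalized cells were 1 clone or a pool. The remaining 9 arrays are primary replicate 1, A50 replicate 2, both A58, both A67 and both A95 arrays, and B96 replicate 1. A row counted as outside when B96 replicate 2 lay at least 1 log2 above the highest or below the lowest of the 4 arrays, which 178 of 28869 rows did.

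The 4 arrays were chosen by the likeness of their values over all rows to those of B96 replicate 2, and a single array stands on the other side. All differences below are therefore sizes with no test, and no replicate checks them. The spread given is that of the 4 arrays (SD, n = 4). Each array is called by its label throughout, and the label of B96 replicate 2 is in doubt, since B96 replicate 1 differed from it by 1 log2 or more in 2765 rows. The 4 arrays differed from it in 754 to 982 rows (Pearson r across rows of 0.977 to 0.979, against 0.945 for B96 replicate 1). Among themselves the 4 fall into a close pair of primary replicate 2 with A39 replicate 1 (156 rows 1 log2 or more apart) and a close pair of A39 replicate 2 with A50 replicate 1 (180 rows). Arrays of different pairs were 668 to 915 rows apart. One of the 4 also goes against its label, because TERT read 11.70 in primary replicate 2 and 7.07 in primary replicate 1.

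As background, fibroblasts make the connective tissue matrix, and they lose the capacity to divide unless telomere length is maintained. Immortalized fibroblasts that are passaged for long can pass through selection of subclones, and stable on or off states of single genes then differ between cultures. Interferon-stimulated genes, metallothioneins and cytokines respond to signals, metals and stress, and they can also differ between cultures of 1 lineage. Which kind of difference a gene below shows was not tested.

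B96 replicate 2 had fewer rows outside the range of the 4 arrays than any of the other 9 arrays. It was higher in 73 rows (0.253% of all rows) and lower in 105 rows (0.364%), or 0.617% in either direction. Next came A50 replicate 2 with 316 rows (1.09%), A58 replicate 1 with 321 (1.11%) and primary replicate 1 with 362 (1.25%). A58 replicate 2 had 457 (1.58%), A67 replicate 1 had 481 (1.67%), A95 replicate 1 had 673 (2.33%) and A67 replicate 2 had 683 (2.37%). At the far end stood B96 replicate 1 with 1137 rows (3.94%) and A95 replicate 2 with 1430 (4.95%). Being close to the 4 arrays is what the selection used, so the order describes the choice. Leaving out primary replicate 2 gave 94 rows higher and 121 lower, and a narrower range can only add rows.

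**Figure D1:**
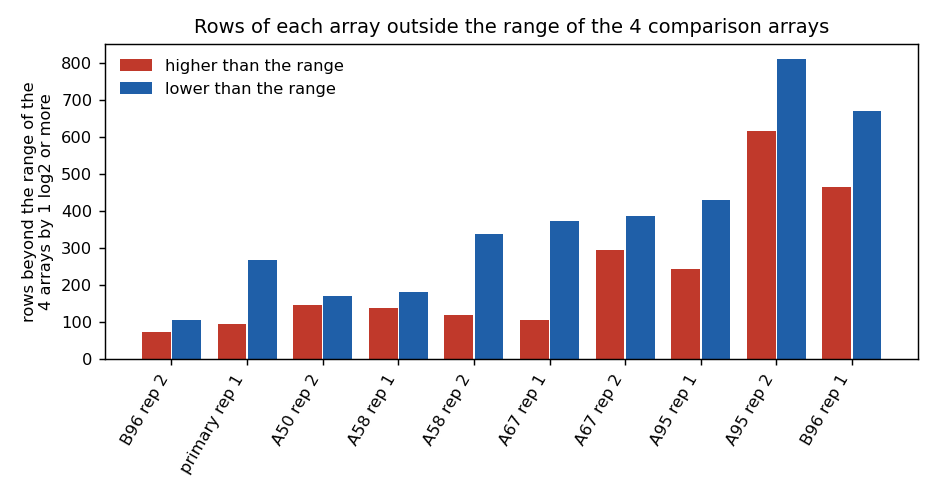
Number of table rows (vertical axis) in which each of 10 arrays (horizontal axis) lay 1 log2 or more above (red) or below (blue) the range of the 4 comparison arrays. B96 replicate 2 has the shortest bars, at 73 and 105 rows, and A95 replicate 2 the tallest, at 618 (2.14% of all rows) and 812 (2.81%).

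The similarity can be read gene by gene in the rows that set the 4 arrays apart. In 30 rows all 4 arrays lay 1 log2 or more above all 9 others, and in 2 rows they lay as far below. B96 replicate 2 was nearer to the 4 arrays in 21 of the 30 rows and in both of the others. ITGA8, the alpha 8 integrin subunit that pairs with beta 1 and binds matrix proteins of the RGD type, read 10.69 in B96 replicate 2. The 4 arrays gave 10.14, 10.19, 10.92 and 10.87 in the order primary replicate 2, A39 replicate 1, A39 replicate 2 and A50 replicate 1, an order kept below. The 9 other arrays ran from 5.08 to 8.39 with a median of 5.41, so B96 replicate 2 lay inside the upper group. AMZ2P1, a pseudogene of a metalloprotease, read 11.96 against 12.26, 12.27, 12.13 and 12.22, while the 9 others ran from 5.79 to 6.79. It was slightly under the range of the 4 and more than 5 log2 above every other array.

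Further genes of this kind carry signals between cells or regulate transcription. TFAP2C, a transcription factor, read 7.77 in B96 replicate 2, 8.11 to 8.57 in the 4 arrays and at most 5.71 in the 9. HGF, the hepatocyte growth factor that fibroblasts secrete, read 11.24 against 11.28 to 11.78, and at most 9.68 in the 9. LPAR3, a receptor for lysophosphatidic acid, was 9.31 against 9.15 to 9.25, and GFRA1, a receptor for GDNF, was 9.41 against 9.40 to 9.46. KRT18, a keratin of simple epithelia, was 11.71 in the separating row and lay above the 4 arrays (11.08 to 11.14), as did its other row (11.95 against 11.42 to 11.54). In the opposite direction ESM1, a secreted proteoglycan, was 6.21 against 5.64 to 6.48 in the 4 arrays and at least 7.68 in the 9. These examples were taken from the rows in which B96 replicate 2 was nearer to the 4 arrays, and the likeness restates how the 4 were chosen. Without primary replicate 1 among the other arrays, 59 rows separated the arrays in this way, and B96 replicate 2 was nearer to the 4 in 49 of them.

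**Figure D2:**
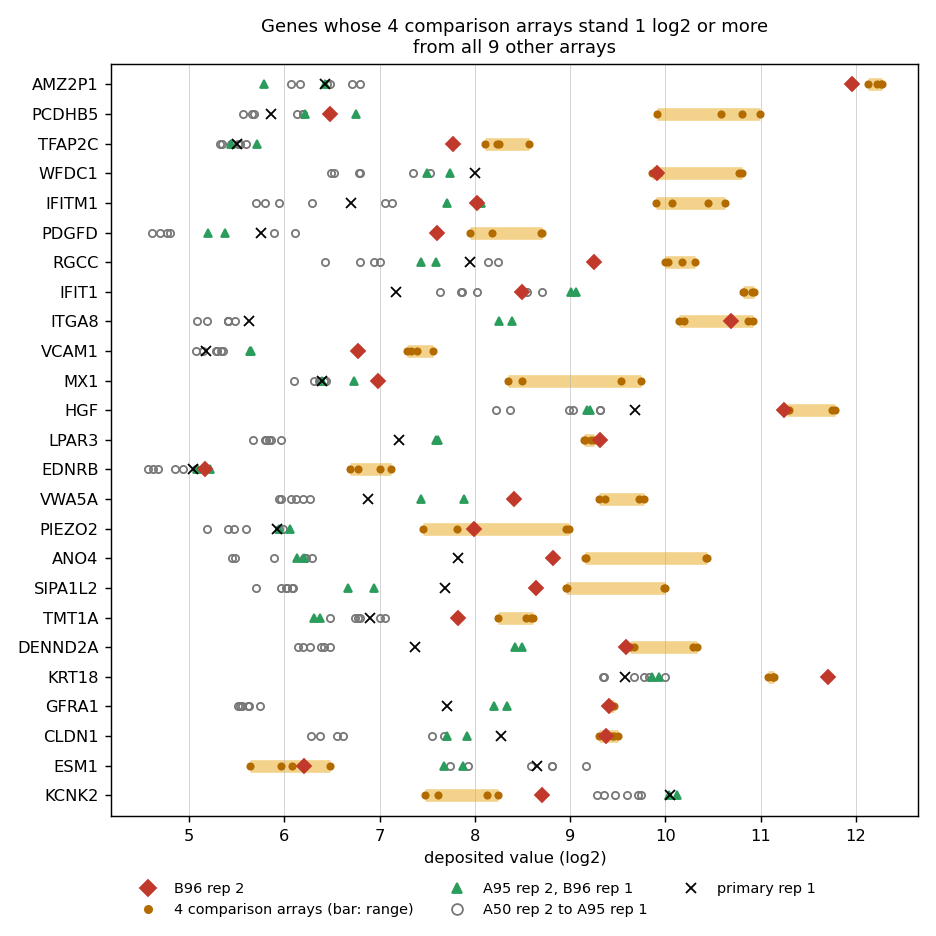
Log2 value (horizontal axis) of the 25 named genes (vertical axis) whose 4 comparison arrays (orange points, bar for their range) lay 1 log2 or more from all 9 other arrays. B96 replicate 2 (red diamond) lies near the bar for ITGA8 (10.69), GFRA1 (9.41) and CLDN1 (9.38), and with the other arrays for PCDHB5 (6.48), IFIT1 (8.49) and EDNRB (5.17).

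Regulators followed across the series lay in the range of the 4 arrays or less than 1 log2 outside it. MKI67 is given with the genes of cell division below. TERT read 11.93 (11.70, 11.62, 12.18 and 11.98 in the 4). CDKN2A, the gene of the p16 inhibitor of cyclin-dependent kinases, read 8.87, below 9.29, 9.25, 9.59 and 9.30 by 0.38 but above the median of 7.85 of the 9 other arrays. CDKN1A, which encodes p21, read 10.92, below 11.11 to 11.70 in the 4 and nearer the median of 10.75 of the 9. CDKN2B, which encodes p15, read 9.86, above 9.46 to 9.68. The DNA methyltransferase genes DNMT1, DNMT3A and DNMT3B differed from the mean of the 4 by 0.49, 0.06 and 0.17. DNMT1 at 10.61 was above all 4 (9.88 to 10.42). None of these genes, TERT and CDKN2A included, was outside by 1 log2.

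In the remaining 9 of the 30 rows B96 replicate 2 was nearer to the 9 other arrays. PCDHB5, a cell surface protein of the clustered protocadherins whose members are switched on in combinations, read 6.48 in B96 replicate 2. The 4 arrays read 10.58, 10.80, 9.91 and 10.99, a mean of 10.57 ± 0.47 (SD, n = 4), and the 9 other arrays 5.57 to 6.75. The difference of -4.09 was the largest of any named gene, and here B96 replicate 2 lay with the 9 other arrays. Row 8003226, for which no symbol was found, behaved the same way, with 5.84 in B96 replicate 2, 11.61 to 12.00 in the 4 and 5.78 to 6.50 in the 9. EDNRB, an endothelin receptor, read 5.17 against 6.69 to 7.12 in the 4 and 4.57 to 5.22 in the 9.

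Of 18 measured beta protocadherin genes, PCDHB5 alone was outside the range by 1 log2, where 0.375% of all genes were lower by that distance. The median difference of the family was -0.28, with a range of -4.09 to 0.73. PCDHB2 read 6.74 against 5.66 to 6.31 in the 4 arrays, and it reached 10.40 in A95 replicate 2 and 10.29 in B96 replicate 1. PCDHB16 read 7.15 against 7.43 to 8.28, and PCDHB6 4.97 against 5.30 to 5.86. PCDHB16 was 10.15 and 9.96 and PCDHB6 9.07 and 9.33 in A95 replicate 2 and B96 replicate 1, so in all 3 genes those late arrays were higher than B96 replicate 2. Rows of the alpha and gamma clusters carry several symbols and were not used.

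The promoters of the 2 genes with opposite outcomes, PCDHB5 with the low level and ITGA8 with the high level, are shown for their CpG content, since the study's title concerns methylation, which in mammals mostly falls on cytosines followed by guanine. Both are from RefSeq (GRCh38.p14), from 250 bases before to 50 bases after the gene's start, with each CG in capitals. No methylation was measured on these arrays.
PCDHB5, chr5:141134956-141135255, plus strand: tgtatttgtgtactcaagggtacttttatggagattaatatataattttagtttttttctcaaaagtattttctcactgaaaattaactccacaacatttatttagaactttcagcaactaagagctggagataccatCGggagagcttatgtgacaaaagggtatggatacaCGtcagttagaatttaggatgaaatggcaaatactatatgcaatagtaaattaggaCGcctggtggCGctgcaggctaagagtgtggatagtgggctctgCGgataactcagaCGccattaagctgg
ITGA8, chr10:15719873-15720172, minus strand: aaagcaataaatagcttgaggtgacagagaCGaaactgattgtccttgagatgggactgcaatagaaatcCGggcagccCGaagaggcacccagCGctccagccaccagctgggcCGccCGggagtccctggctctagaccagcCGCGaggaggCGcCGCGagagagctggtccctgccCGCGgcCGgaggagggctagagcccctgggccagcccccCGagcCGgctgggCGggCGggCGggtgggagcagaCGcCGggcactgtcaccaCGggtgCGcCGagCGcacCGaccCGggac
The PCDHB5 window held 6 CG and the ITGA8 window 27, where the median of all 35116 promoters in the table was 14. Among genes outside the range, the median was 24.5 CG for the 18 higher genes found in the table and 10 for the 52 lower genes found. The lower genes include interferon response genes, described below, whose 8 available promoters had a median of 4.5. For the 44 lower genes outside that list the median was 14, the same as for all promoters.

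Of the gene lists described, interferon response genes had the most members among the lower rows. A bulk RNA level cannot tell fewer cells expressing a gene from less RNA in each cell, here or in the groups below. Of 21 measured genes of the list, 9 were lower by 1 log2 or more and 0 higher, where 0.375% of 18377 genes were lower and 0.169% higher. The list's median difference was -1.10 against 0.055 for all genes. Below the lowest of the 4 arrays, by any distance, lay 19 of 21, against 20.8% of all genes. IFIT1, which binds foreign RNA, read 8.49 against 10.82, 10.81, 10.91 and 10.93 (mean 10.87 ± 0.06, SD, n = 4). IFI44L, an interferon-induced gene, read 5.92 against 9.02, 8.90, 8.31 and 8.58, and its neighbour IFI44 read 7.11 against 9.26, 9.25, 9.08 and 9.05. IFI6, a mitochondrial survival factor, read 9.40 against 11.97, 11.94, 11.53 and 11.63. In these 4 genes B96 replicate 2 was separate from the 4 arrays by 1.94 to 2.39 log2.

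Most of the remaining interferon genes were lower too, with smaller gaps. IFITM1, which blocks virus entry, read 8.02 against 9.90 to 10.62, IFIT2 6.91 against 8.59 to 9.10, and IFIT3 8.50 against 9.94 to 10.12. MX1, a GTPase that acts on viral particles, read 6.98, with a spread between the pairs of the 4 arrays (9.74 and 9.53, then 8.49 and 8.35). XAF1, a cofactor of cell death, read 7.12 against 8.40 to 8.78. OAS1, OAS2 and IRF9, a subunit of the transcription factor ISGF3, were lower by 0.83, 0.87 and 0.93 log2 beyond the range. The 2 genes that were not below the range were OASL at 7.05 (6.77 to 6.99 in the 4) and IRF7 at 8.25 (8.07 to 8.40). Genes outside the list that are known to be interferon-induced, chosen after their values were seen, were also lower. USP18, which removes ISG15 from proteins, read 8.01 against 9.18 to 9.52, EPSTI1 6.41 against 7.85 to 8.25, and HERC6 6.81 against 7.95 to 8.66.

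In these genes B96 replicate 2 sat with most of the 9 other arrays. Measured against the mean of the 4, the list's median was -1.34 in primary replicate 1 and between -1.21 and -1.0 in the 6 arrays from A50 replicate 2 to A95 replicate 1. It was -0.08 in A95 replicate 2 and -0.23 in B96 replicate 1, the array with the same label. Against the first pair of comparison arrays alone the median was -1.32, and against the second pair -0.89. MHC class I antigen presentation genes had a median of -0.54. Of these, 6 of 6 measured lay below the range, against 20.8% of all genes, although none by 1 log2. PSMB9, a subunit of the immunoproteasome, read 8.87 against 9.58 to 9.87, and B2M, the light chain of class I molecules, 11.79 against 12.23 to 12.31.

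**Figure D3:**
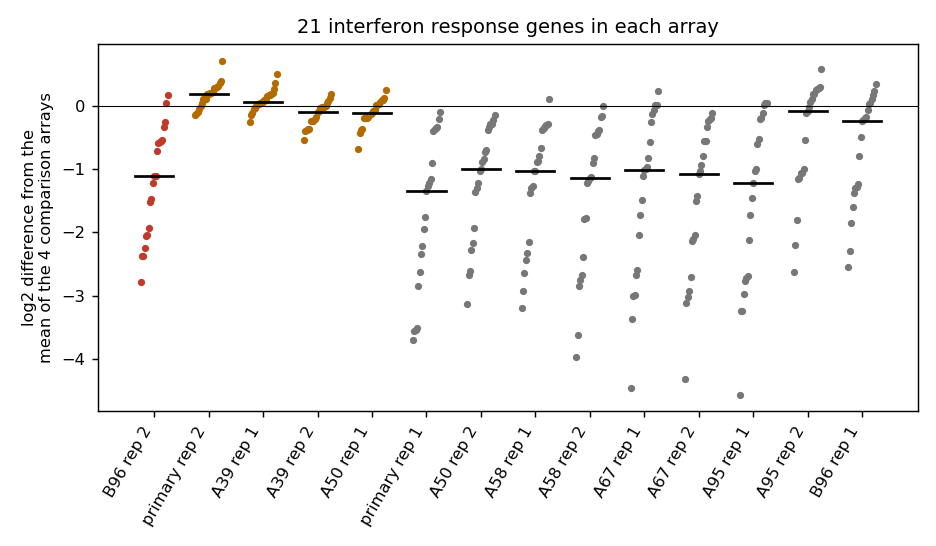
Log2 difference of 21 interferon response genes (points) from the mean of the 4 comparison arrays (vertical axis) in each of 14 arrays (horizontal axis), with the list's median as a black line. The median is -1.10 in B96 replicate 2, near 0 in the 4 arrays that define the zero line, and -0.23 in B96 replicate 1.

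The promoters of IFIT1 and IFI44L, the interferon genes with the widest gaps, are shown for the core of the interferon-stimulated response element, searched as GAAANNGAA on both strands. Matches are in capitals, and those of the IFIT1 promoter are on the strand opposite to the printed one.
IFIT1, chr10:89392373-89392672, plus strand: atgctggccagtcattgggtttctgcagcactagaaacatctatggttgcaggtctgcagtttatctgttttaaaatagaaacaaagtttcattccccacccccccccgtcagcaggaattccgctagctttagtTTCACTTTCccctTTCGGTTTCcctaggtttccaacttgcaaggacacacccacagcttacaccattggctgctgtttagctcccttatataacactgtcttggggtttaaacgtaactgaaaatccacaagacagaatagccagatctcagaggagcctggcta
IFI44L, chr1:78620198-78620497, plus strand: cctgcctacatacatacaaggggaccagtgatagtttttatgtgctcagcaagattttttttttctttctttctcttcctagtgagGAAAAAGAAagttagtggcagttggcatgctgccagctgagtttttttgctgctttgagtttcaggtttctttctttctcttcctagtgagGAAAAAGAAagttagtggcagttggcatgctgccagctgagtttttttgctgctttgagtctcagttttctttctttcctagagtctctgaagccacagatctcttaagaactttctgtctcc
The motif was found in 7 of the 8 promoters available for the 9 lower genes of the list and in 13 of the 16 available for all its 21 measured genes, so it does not set the lower genes apart within the list. It was found in 14 of 52 for all lower genes and in 1 of 18 for higher genes (OR11H6). It was found in 2847 of all 35116 promoters (8.11%). XAF1 was the promoter of the 8 without it. Of the 44 lower genes outside the list with a promoter in the table, 7 held it, namely EPSTI1, SAMD9, PLSCR1, TMEM140, DDX60, IL6 and FCGR2A. A match describes letters in the window, not binding.

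Cytokine genes included some of the largest differences. IL6, the interleukin secreted by senescent and inflamed fibroblasts, read 7.96 against 10.61, 10.29, 11.06 and 11.08 (difference -2.80). It was 10.54 and 10.56 in A95 replicate 2 and B96 replicate 1 and at most 7.59 in the other 7 arrays. CXCL8, a neutrophil chemokine, read 6.25 against 8.16, 7.94, 7.61 and 7.69, and LIF, a cytokine of the IL6 family, 8.94 against 9.97 to 10.54. Of 24 measured genes in the list of senescence-associated cytokines and chemokines these 3 were lower by the rule (12.5%, against 0.375% of all genes) and 0 higher. The list's median difference was -0.26 against 0.055 for all genes. CXCL1 and TNFRSF11B, with differences of 0.03 and 0.0075, lay within the range of the 4.

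A pair of genes that respond quickly to stress or growth signals, FOS chosen after its values were seen, were also lower. ATF3, a stress-induced transcription factor, read 6.61 against 8.60, 8.21, 8.01 and 7.87. It was the single gene outside by 1 log2 among 23 measured genes of the amino acid and unfolded protein stress list. Of all genes 0.375% were lower by the rule. FOS, an immediate-early factor, read 7.28 against 10.13, 8.61, 9.80 and 9.49. The 9 other arrays had FOS at 8.05 to 11.05. In both genes B96 replicate 2 was the lowest of all 14 arrays.

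Of 13 measured metallothioneins, small proteins that bind zinc and copper, 5 were lower by the rule (0.375% of all genes were), and these 5 were lower in B96 replicate 2 than in any other array. The family was taken up after its values were seen, so the count restates how it was chosen. MT1F read 8.71 against 10.88, 10.81, 10.25 and 10.34, and the 9 others ran from 10.22 to 10.79. MT1G read 10.69 against 12.19, 12.11, 11.90 and 11.83, and at least 11.73 in the 9. MT1H read 7.50 against 8.81 to 9.28, and MT2A, the most abundant family member in many cells, 12.77 against 13.26 to 13.50. Of the 13, 12 lay below the range of the 4 and MT3 lay above it, with a family median of -0.83. Over all genes 20.8% lay below the range and 30.8% above it. Interferon genes were low in several of the 9 arrays too, but these 4 metallothionein rows were not.

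Neighbouring genes on chromosome 16 make up the 5 metallothionein genes outside the range (MT1DP, MT1F, MT1G, MT1H and MT1IP), within a run of 6 measured genes. The copies are near-identical and their probes may share signal, which was not tested. The 5 are therefore not taken as separate measurements. The promoter of MT1H is shown for the core of the metal response element, searched on both strands as TGCACNC or TGCGCNC, with matches in capitals.
MT1H, chr16:56669564-56669863, plus strand: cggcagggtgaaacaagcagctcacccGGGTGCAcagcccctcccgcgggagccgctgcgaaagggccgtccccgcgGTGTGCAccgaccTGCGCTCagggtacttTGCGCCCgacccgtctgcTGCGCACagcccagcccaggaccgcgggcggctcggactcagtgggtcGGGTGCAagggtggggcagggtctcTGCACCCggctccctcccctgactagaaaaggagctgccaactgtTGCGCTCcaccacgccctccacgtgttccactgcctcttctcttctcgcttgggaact
This window held 8 matches. Of the 13 measured metallothioneins 5 had a promoter in the table, MT1H alone of the 5 outside the range, and each of these promoters held at least 1 match, as did 29.6% of all promoters.

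Genes of alcohol metabolism, also taken up after their values were seen, formed a further neighbouring group, on chromosome 4. ADH1C, a class I alcohol dehydrogenase, read 5.17 against 7.84, 8.40, 7.31 and 7.77. ADH1B read 5.90 against 7.29 to 8.32, and ADH1A 6.28 against 7.39 to 8.02. The 3 genes are near-identical, so their rows may share signal. ADH5, the formaldehyde-detoxifying class III enzyme, differed by -0.35, and ADH4, ADH6 and ADH7 lay between 0.11 and 0.30. In the 9 other arrays ADH1C was highest in A50 replicate 2 and A58 replicate 1 (7.65 and 7.67), with a median of 5.17.

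IGFBP3, which binds insulin-like growth factors in the medium, read 9.99 against 11.87, 11.80, 11.77 and 11.78 (mean 11.80 ± 0.05, SD, n = 4). The 9 others ran from 11.24 to 12.55, so B96 replicate 2 was the lowest of the 14 arrays by 1.25 log2. Among 9 measured genes of the IGF-binding protein list it alone was outside by the rule (0.375% of all genes were lower). IGFBP5 read 13.06 against 13.05 to 13.38 and IGFBP2 9.05 against 8.90 to 9.25. LGALS13, a placental galectin, read 4.04 against 5.90 to 6.42, and ABCA8, a lipid transporter, 5.33 against 6.86 to 6.93. Both were the lowest of the 14 arrays. These 2 rows were dim in most arrays (5.92 to 7.47 and 5.91 to 6.73 in the 9 others), and the table holds no detection call.

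**Figure D4:**
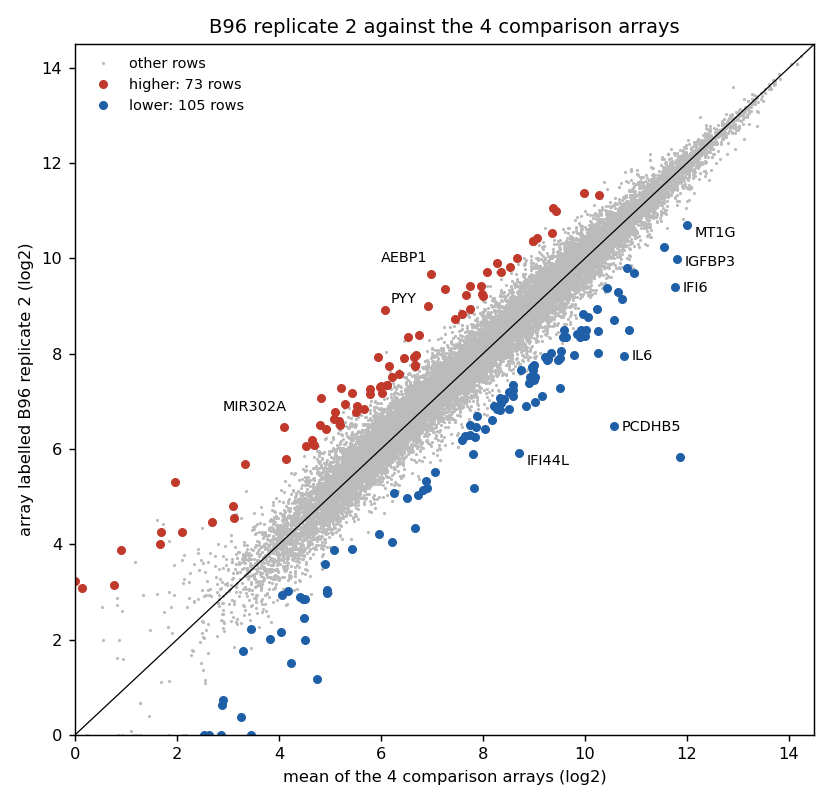
Value of each of 28869 rows in B96 replicate 2 (vertical axis, log2) against the mean of the 4 comparison arrays (horizontal axis, log2), with equality as a line. Red and blue points are the 73 higher and 105 lower rows. PCDHB5 lies at 10.57 on the horizontal and 6.48 on the vertical axis.

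The higher rows held fewer named genes. Of the 73, 34 rows had a single symbol, 38 had none and 1 had several, and of the 105 lower rows 71 had a single symbol. Dim rows were more frequent on the higher side, where 41 of 73 rows had a mean over all arrays under the 30th percentile of all rows, against 35 of 105 on the lower side. B96 replicate 2 had a median of 7.48, above the 7.30 to 7.44 of the 4 arrays, and its median difference over all rows was 0.0675. With every array centred on its median, 48 rows were higher and 137 lower, so that 25.9% of the rows outside were higher instead of 41.0%.

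PYY, a peptide hormone of the gut, read 8.91 in B96 replicate 2 against 5.98 to 6.32 (mean 6.08 ± 0.16, SD, n = 4). At most 6.96 was read in the 9 other arrays, so this level stood alone in the series. AEBP1, a secreted protein of the collagen matrix, read 9.67 against 7.42, 7.33, 6.52 and 6.68, and primary replicate 1 was next at 8.71. TNFSF4, the ligand of the T cell receptor OX40, read 9.01 against 7.46, 7.35, 6.46 and 6.41, and at most 7.85 in the 9. ADAMTS19, a secreted metalloprotease, read 8.34 against 6.11 to 6.84, and ANO1, a calcium-activated chloride channel, 9.42 against 7.77 to 8.22.

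Other higher genes had a like or higher level elsewhere in the series. RGS4, which shortens G protein signals, read 9.71 against 7.96, 7.88, 8.24 and 8.27, but 10.41, 10.63 and 11.65 in A95 replicate 2, B96 replicate 1 and primary replicate 1. FNBP1L, an actin-regulating membrane protein, read 6.78 against 4.85 to 5.42, and 8.34 in primary replicate 1. MMP3, the matrix protease stromelysin, read 9.23 against 7.31, 7.27, 7.97 and 8.12, and 9.36 in A50 replicate 2. ADAMTS5, an aggrecan-cleaving protease, was lower, at 7.86 against 8.96 to 9.63, with a median of 6.99 in the 9 other arrays. MMP3 and ADAMTS5 were the members outside by the rule among 23 measured matrix proteases and inhibitors, whose median difference was 0.20. By the rule 0.169% of all genes were higher and 0.375% lower. MMP14, which activates other matrix proteases at the cell surface, read 11.78 against 10.99 to 11.07 and was the highest of the 14 arrays.

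Of the 73 higher rows 57 exceeded all 13 other arrays, 29 of them by 1 log2 or more. Of the 105 lower rows 48 were below all 13, 18 of them by 1 log2 or more. Primary replicate 1 was outside on the same side as B96 replicate 2 in 50 of the 105 lower rows (47.6%, against 0.928% of all rows), and A95 replicate 1 in 42 (40.0%, against 1.49%). B96 replicate 1, with the shared label, was so in 25 of the lower rows (23.8%, against 2.32%) and 10 of the higher rows (13.7%, against 1.61%). These arrays are set against the same 4 arrays, which alone gives shared rows. The share beyond all 13 arrays was 78.1% of the higher and 45.7% of the lower rows. Both sets were chosen for lying beyond 4 of the 13, and the share over all rows was not computed. More of the higher rows were under the 30th percentile of row means (56.2% against 33.3%), so the 2 shares are not like for like.

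**Figure D5:**
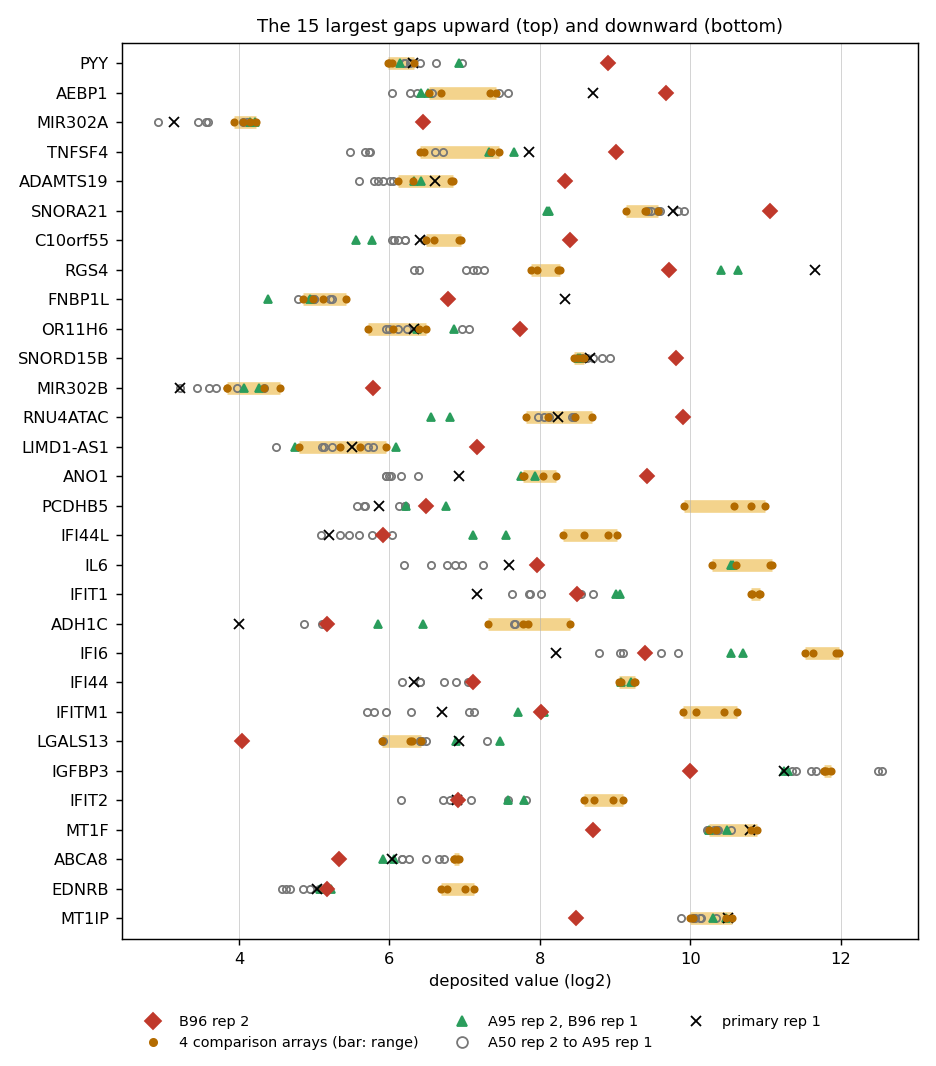
Log2 value (horizontal axis) of the 30 named genes with the widest gaps (vertical axis), in the 4 comparison arrays (orange points, bar for their range), B96 replicate 2 (red diamond) and the other 9 arrays. PYY (8.91) and MIR302A (6.45) lie above every other array, and IFIT1 (8.49) and EDNRB (5.17) lie among the other arrays.

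Small RNA rows made up 9 of the 34 higher rows with a single symbol (26.5%), 0 of the 71 lower ones and 2.03% of all rows with a single symbol. SNORA21, which guides RNA modification, read 11.06 against 9.57, 9.41, 9.14 and 9.40, SNORD15B 9.81 against 8.45 to 8.58, and SNORD57 11.33 against 10.23 to 10.33. RNU4ATAC, a small RNA of the minor spliceosome, read 9.90 against 7.81 to 8.69. Of 176 measured snoRNA genes 3 were higher by the rule (1.70%, against 0.169% of all genes), and their median difference was 0.12, against 0.055 for all genes. Rows of repeated small RNA families can share probes, so single rows are uncertain. The labelling protocol starts from total RNA, and its recovery of short RNA was not tested here.

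Rows of 4 miRNA genes were among the higher ones. The array rows report the gene, not a mature arm, so the arms are shown for identity. Seeds (bases 2 to 8) are in capitals, from RefSeq (GRCh38.p14).
hsa-miR-302a-3p: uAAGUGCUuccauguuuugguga
hsa-miR-302b-3p: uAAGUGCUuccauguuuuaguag
hsa-miR-100-5p: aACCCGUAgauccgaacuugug
hsa-miR-10a-5p: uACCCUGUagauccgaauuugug
The miR-302 arms share their seed and come from neighbouring genes on chromosome 4, in a cluster known from pluripotent cells. MIR302A read 6.45 against 4.14, 3.93, 4.05 and 4.23, and 2.92 to 4.21 in the 9. MIR302B read 5.78 against 4.55, 4.33, 3.84 and 3.84, and 3.21 to 4.33 in the 9. Both are dim in every array, and the table holds no detection call. MIR100 read 7.50 against 6.04 to 6.42 and MIR10A 7.17 against 5.97 to 6.13, and A50 replicate 2 gave like values for these (7.41 and 7.36).

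Genes of cell division placed B96 replicate 2 with the first pair of the 4 arrays. The median difference of 30 measured mitosis genes was 0.03 against primary replicate 2 and A39 replicate 1, and 1.20 against A39 replicate 2 and A50 replicate 1. MKI67, a marker of cycling cells, read 10.39 against 10.28, 10.13, 8.79 and 8.84. FOXM1, which drives genes needed for mitosis, read 10.29 against 9.59, 9.46, 8.73 and 8.58, above both pairs. DNA replication genes had medians of 0.01 and 0.77 against the pairs, and the clustered histone genes, which S phase cells express, of -0.005 and 1.10. None of the members of these 3 lists was outside the range of the 4 arrays by the rule. That range is wide here, because the pairs differ (mitosis mean levels of 10.32, 10.25, 9.17 and 9.20), so the rule could hardly call these genes.

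The labelled cell type was checked by its markers. The fibroblast genes VIM, an intermediate filament, THY1, a surface marker, and PDGFRB, a growth factor receptor, read 12.98, 11.83 and 11.12 in B96 replicate 2, and 12.96 to 13.09, 11.77 to 12.03 and 10.74 to 10.89 in the 4 arrays. Over 17 fibroblast genes the median difference was -0.035, with 7 genes above the mean of the 4 arrays and 9 below it. Of the 17, 4 lay above the range and 4 below it (30.8% and 20.8% of all genes). The 6 lists of other cell types (endothelium, blood, epithelium, nervous tissue, striated muscle, and fat, cartilage and bone) held 63 measured genes, of which 0 were outside by the rule in either direction. Of all genes 0.169% were higher and 0.375% lower, so a count of 0 is near those shares. The rule compares arrays labelled as the same cells, so this count cannot show that other cell types were absent. By smaller distances, 2 of 11 epithelial genes, KRT18 among them, lay above the range and 1 below it (30.8% and 20.8% of all genes). Their median differences ran from 0.014 to 0.16, and their mean levels from 6.72 to 7.87 in B96 replicate 2 and from 6.54 to 7.95 in the 4 arrays. Of 36 gene lists, not counting the metallothionein, alcohol dehydrogenase and miR-302 families taken up after their values were seen, 29 had no gene outside the range by 1 log2.

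The threshold falls in a dense part of the values. On the higher side CIDEB and SNORD57 were inside it at 1.00 log2 beyond the range, and the nearest named row, SNORD13P3, missed it at 0.98. On the lower side ZXDA and CD55 were inside it at 1.00 and 1.01, and SKP1 and TAAR6 missed it at 0.99. Between 0.9 and 1 log2 beyond the range lay 32 rows on the higher and 38 on the lower side.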

How the data were processed

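The authors deposited 1 table of log2 values to 2 decimals for 14 Affymetrix human gene arrays, and the log2 base is read from the values. The sources used here do not give how they were background-corrected or normalized. Values were used as deposited, with no filter, and compared as whole hundredths in Python 3.11.15 with pandas 2.3.3. Rows were named from the platform's annotation and updated by gene ID through RefSeq (GRCh38.p14). Of 28869 rows, 19310 had 1 symbol (19279 matched by gene ID), 1752 several and 7807 none. For lists, the row with the highest mean stood for its gene (18377 genes). The table holds no background signals, so the number of arrays limits precision. Between 3 and 20 rows an array were listed at 0, and 9 of the 178 rows held a 0 in the 5 arrays compared.

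No test was made, since 1 array faced 4 chosen by similarity. Named genes were the 15 widest gaps each way, 3 markers, 8 regulators and up to 4 list members outside the range; Y-linked genes and the X inactivation RNA were left out. Other genes were named after their values were seen. Alternatives were leaving out each array, either pair alone, other scalings, a filter on dim rows and other distances. The members and lists were chosen with earlier results of these data known. The gap computation was checked on simulated data.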

Additional observations from a re-analysis of the deposited data

How the results depend on the processing

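No paired analysis was possible because 1 array is set against 4 and the result comes from no test. Without each of the 4 arrays in turn, 92 to 94 rows were higher and 121 to 126 lower, the interferon median was -1.18 to -1.03, and 33 to 34 rows separated the 4 arrays from the 9, with 24 to 25 nearer the 4. Against the first pair alone (primary replicate 2 and A39 replicate 1) 233 rows were higher and 262 lower, with an interferon median of -1.315. Against the second pair they were 405 and 237, with -0.89. Median centring left 48 rows higher, the filter on dim rows 32, and 1 row per gene left 31 higher and 69 lower. At 0.5 log2 beyond the range 630 rows were higher and 534 lower, at 2 log2 6 and 12. By distance of 1 log2 from the mean of the 4 they were 281 and 241. Without primary replicate 1, an alternative chosen after seeing the data, the separating rows numbered 59, 49 of them nearer the 4. Leaving out arrays, or using either pair alone, can only narrow the range. The 36 named genes outside it therefore had to stay outside in those settings, which check nothing about them. The scalings could have changed this, and under both all 36 kept their direction. Of these 36, 35 stayed outside by 1 log2 under quantile normalization and 35 under median centring. With arrays left out, either pair alone or the values rescaled, the interferon count was 9 to 12 and the metallothionein count 5 to 6. The use of these settings for both lists was also chosen after seeing the data. With fewer comparison arrays, these counts and those of all rows outside could not fall, so their floor was fixed there.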

Other observations

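Several genes of secretion, ion and peptide handling were also lower in B96 replicate 2 and were chosen after their values were seen. C7, a terminal complement component, read 5.04 against 6.80, 6.84, 6.47 and 6.78 in the order used above. C7 was 4.80 in primary replicate 1, and 9.75 and 9.83 in A50 replicate 2 and A58 replicate 1. MASP1, a protease of the lectin pathway of complement, read 8.38 against 9.80 to 10.25. It was 6.19 in primary replicate 1 and up to 12.04 in A50 replicate 2. SLC40A1, the iron exporter ferroportin, read 7.38 against 8.76 to 9.05, with a median of 7.31 in the 9 other arrays. BDKRB2, a bradykinin receptor, read 8.34 against 9.80 to 9.98, with a median of 8.42 in the 9. NPR3, the clearance receptor of natriuretic peptides, had 2 rows, at 7.45 (8.82 to 9.21 in the 4) and 7.04 (8.24 to 8.58), and both were the lowest of all 14 arrays. CD55, which protects cells from complement, read 9.79 against 10.80 to 10.87 and was the lowest of the 14 arrays, next to 9.80 in primary replicate 1.

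On the higher side, by genes also chosen after their values were seen, TENT5C, a poly(A) polymerase, read 10.53 against 9.27 to 9.43, and at most 8.93 in the 9 other arrays. NETO2, an accessory subunit of kainate receptors, read 9.26 against 7.82 to 8.16, and 9.46, 9.38 and 9.60 in A95 replicate 2, B96 replicate 1 and primary replicate 1. SERPINB7, a protease inhibitor, read 10.43 against 8.74 to 9.36, and 10.80 to 10.84 in primary replicate 1, A95 replicate 2 and B96 replicate 1. Both rows of TUBB2A, a beta tubulin, held the same values, 10.36 against 8.63 to 9.28, so they count as 1 measurement, and close tubulin copies make the gene uncertain.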
